A study of Mus musculus with 2 samples.

Results

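The proteases stored in mast cell granules were examined as a family of 10 genes: the chymases Mcpt1, Mcpt2, Mcpt4, Mcpt9 and Cma1, the related protease Mcpt8, the tryptases Tpsb2, Tpsab1 and Tpsg1, and the carboxypeptidase Cpa3. Every array probe set (a group of short probes for 1 transcript) whose annotated symbol field holds one of these names was taken, alone or together with a paralog, which gave 11 probe sets for the 10 genes, out of 19324 gene symbols annotated on the array. The RNA came from small intestine of mice with an IL-9 transgene and of wild-type mice, all with a BALB/c background, aged 6 to 8 weeks and given no treatment. IL-9 is a cytokine of type 2 immunity and a growth factor for mast cells, and the series asks how IL-9 and mast cells relate to gut permeability and reactions to food antigens. RNA of 3 mice was pooled for each genotype and each pool was read on 1 Affymetrix array, so n = 1 per genotype and no value below has an error between animals or a p-value. The sources used here name neither the promoter of the transgene nor the line.

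Mast cells store proteases in granules, bound to proteoglycan, and release them when IgE on their surface meets antigen. In mice, mast cells of the mucosal type lie within and beneath the gut epithelium and are marked by the chymases Mcpt1 and Mcpt2. Mast cells of the connective tissue type lie in skin, peritoneum and deeper gut layers and carry Mcpt4, Cma1, Cpa3 and the tryptases Tpsb2 and Tpsab1. Mcpt8 is a protease of basophils, Mcpt9 was described in uterine mast cells, and Tpsg1 is a tryptase with a membrane anchor. These 3 are treated apart from both types.

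All values are deposited intensities, and differences are on the scale of log2(intensity + 1), transgenic pool minus wild-type pool. The text uses 2-fold, a log2 difference of 1, as the size of change, and an expression filter at an intensity of 78.5, the median of all values, which a probe set passed when the higher of its pools reached it. The only technical yardstick is the spread between several probe sets of the same gene on the same arrays, an SD of 0.23 on the log2 scale over 4965 genes past the filter and of 0.19 over 3125 genes below it. The corresponding SD of a gap between a pair of differences is 0.33. The log2 values of the arrays correlated across probe sets, which are no replicates, with r = 0.994, and the median difference over all 18194 genes was 0.01. The tissue label was checked against 12 genes of small intestinal epithelium: 11 were named on the array and all 11 lay past the filter, with differences from -0.32 to 0.12. The IL-9 gene itself is no check of the labels here, since its probe set (Il9) read 71.6 in wild-type and 62.2 in transgenic tissue and the construct is not described.

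The mucosal chymases were the members with by far the highest difference between the pools, while the connective tissue type proteases, Cpa3 apart, differed by less than 2-fold. Of the 9 member genes with a probe set of their own, 3 were 2-fold higher in the transgenic pool (Mcpt1, Mcpt2 and Cpa3) and 0 were 2-fold lower. Over all 18194 genes, 0.412% were 2-fold higher and 0.132% were 2-fold lower. All 11 member probe sets lay above 0, as did 50.7% of all probe sets on the array. Of these 11, 6 passed the expression filter, 1 of them (Cpa3) through the transgenic pool alone. The median difference was 2.83 for the mucosal chymases (2 genes) and 0.32 for the connective tissue type proteases (5 genes), which is 2.51 apart. Only 2 of these 5 genes, Cma1 and Cpa3, passed the filter, and over those 2 the median was 0.74. The rest lay below it in both pools, where background signal may shrink a fold, which was not measured here. The comparison is a description of 1 pair of arrays, for members chosen with results of these data known.

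**Figure D1:**
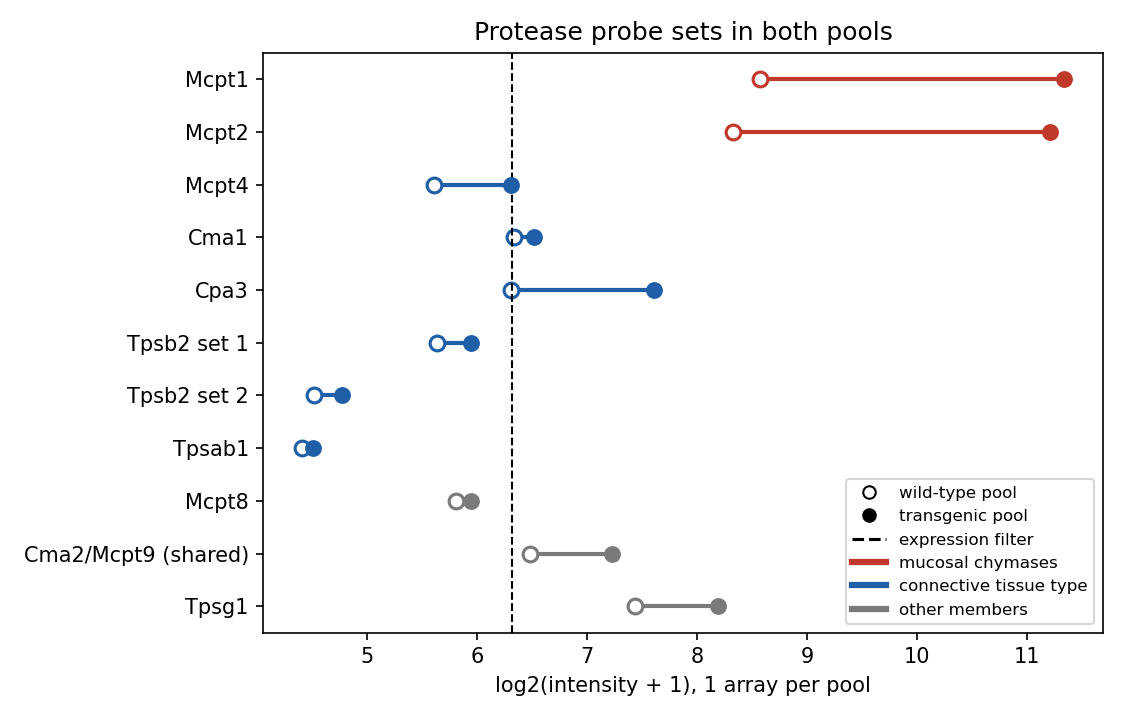
Each row is a probe set and the horizontal axis is log2(intensity + 1), with the wild-type pool as an open circle and the transgenic pool as a filled circle (1 array each, no error bars). The lines of Mcpt1 and Mcpt2 span 2.77 and 2.89 log2 units, that of Cpa3 spans 1.30, and all others stay under 1; levels of different probe sets are not comparable.

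Mcpt1, the mucosal chymase that is also measured in serum as a sign of gut mast cell activation, read 378 in wild-type and 2586 in transgenic tissue. Its log2 difference was 2.77, or 6.82-fold. Mcpt2, its neighbour on the chromosome and the other mucosal chymase, read 319 in wild-type and 2364 in transgenic tissue. This was a log2 difference of 2.89, or 7.39-fold. The transgenic pool was the higher in both, and both probe sets lay past the filter in both pools. Among the 11862 genes past the filter, Mcpt2 ranked 5 and Mcpt1 ranked 6 by difference. The gap between them, 0.12, was under the SD of a gap. Mcpt1 and Mcpt2 are paralogs, and the files do not show how far a probe set for one chymase also binds the transcripts of others, which holds for Mcpt4 and the pseudogene Mcpt-ps1 below as well.

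The granule carboxypeptidase Cpa3, which trims peptides and toxins and is classed here with the connective tissue type, was the only further member past 2-fold. It read 78.3 in wild-type and 194 in transgenic tissue, a log2 difference of 1.30, or 2.46-fold, with rank 46 among the genes past the filter. The wild-type value lay just under the filter, where background signal may shrink a fold. The differences of Mcpt1 and Mcpt2 exceeded that of Cpa3 by 1.47 and 1.59 on the log2 scale.

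The chymases of the connective tissue type differed less. Mcpt4, a chymase with the cleavage preference of human chymase, read 47.7 in wild-type and 78.3 in transgenic tissue, a log2 difference of 0.70. Cma1, the mouse chymase with elastase-like activity, read 79.8 in wild-type and 90.7 in transgenic tissue, a log2 difference of 0.18, which is under the SD between probe sets of a gene. Its wild-type value lay just above the filter, close to the wild-type value of Cpa3, so low signal limits this difference too. The Cma1 and Cpa3 proteins are normally stored together. Here, at the transcript level, their differences lay 1.12 apart on the log2 scale.

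The secreted tryptases, proteases that cleave after basic residues, read low on both arrays. The brighter probe set of Tpsb2, the main stored tryptase of mouse mast cells, read 48.6 in wild-type and 60.8 in transgenic tissue, a log2 difference of 0.32. Its second probe set read 21.9 and 26.4, a log2 difference of 0.26. For Tpsab1, a tryptase that the C57BL/6J reference annotates as a transcribed pseudogene, the values were 20.2 in wild-type and 21.8 in transgenic tissue, a log2 difference of 0.10. These 3 probe sets and that of Mcpt4 lay below the filter in both pools, where 95% of all 21863 probe sets differed by between -0.38 and 0.38. Mcpt4 lay outside that range and the tryptases inside it. At these levels a change in the secreted tryptases was not detectable beyond the technical spread, which does not show that there was none.

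Of the 3 members outside both types, Tpsg1 and the probe set for Mcpt9 had differences much alike. Tpsg1, the membrane-anchored tryptase, read 172 in wild-type and 290 in transgenic tissue, a log2 difference of 0.75. The probe set for Mcpt9 also carries the symbol of the chymase gene Cma2, so its signal belongs to neither gene alone. It read 88.6 in wild-type and 148 in transgenic tissue, a log2 difference of 0.74. Mcpt8, the basophil protease, read 54.9 in wild-type and 60.6 in transgenic tissue, a log2 difference of 0.14, below the filter in both.

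Ordered by difference, the members showed a clear drop only after Mcpt2 and Mcpt1. The SD of a gap used here comes from genes past the filter and holds no spread between animals. From Mcpt2 and Mcpt1 down to Cpa3 the gap was 1.47, which is 4.47 times the SD of a gap. From Cpa3 to Tpsg1 it was 0.55, or 1.67 times that SD. Tpsg1, the Cma2 and Mcpt9 probe set and Mcpt4 followed with gaps of 0.01 and 0.03 and cannot be ordered. From Mcpt4 to the brighter set of Tpsb2 the gap was 0.39, or 1.17 times the SD. Both sets of Tpsb2, then Cma1, Mcpt8 and Tpsab1 came last, with gaps of 0.04 to 0.07, and cannot be ordered either.

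**Figure D2:**
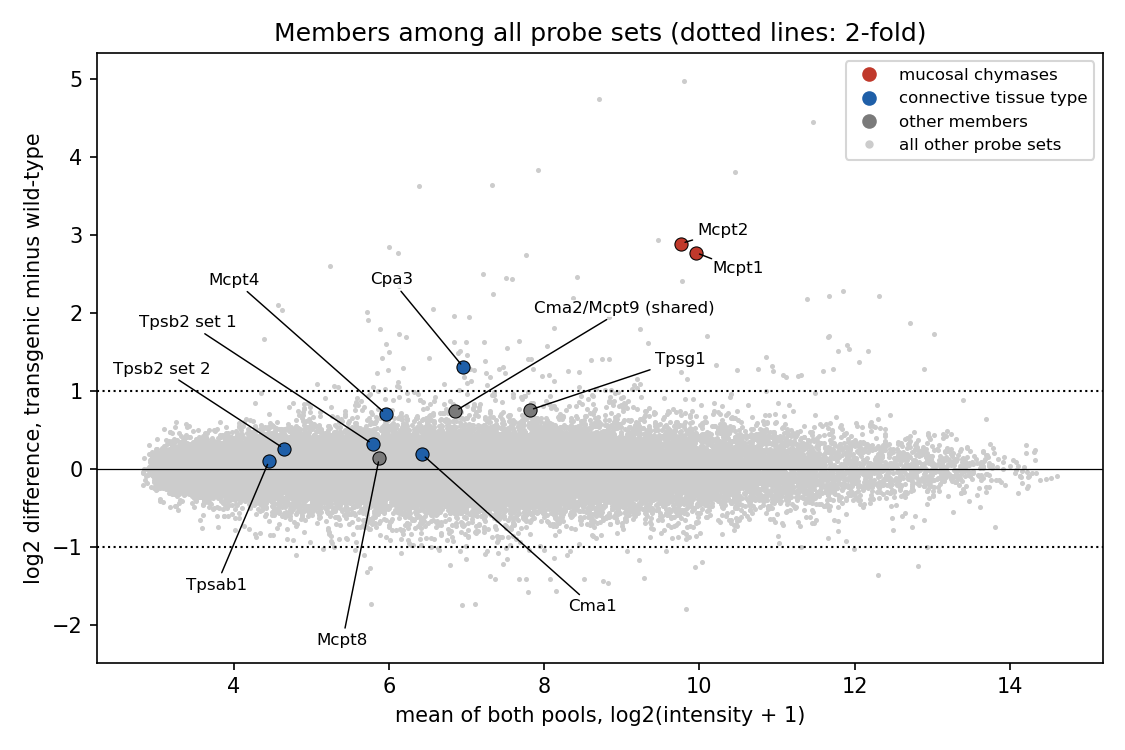
Each point is a probe set, with the mean of both pools as log2(intensity + 1) on the horizontal axis and the log2 difference, transgenic minus wild-type, on the vertical axis; dotted lines mark 2-fold. Mcpt1 and Mcpt2 stand at 2.77 and 2.89, above nearly all of the 45101 probe sets, while Cma1, Mcpt8, Tpsab1 and both sets of Tpsb2 lie within the grey cloud.

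The chymase genes sit side by side on chromosome 14, and in this row only Mcpt1 and Mcpt2 were past 2-fold. The other chymase genes and pseudogenes with a probe set were also higher in the transgenic pool, by 0.14 to 0.90. In the RefSeq annotation of mouse assembly GRCm38.p6 the order is Cma1, the pseudogene Mcpt-ps1, Cma2, the pseudogene Gm5801, Mcpt1, Mcpt2, Mcpt9, Mcpt4 and Mcpt8, followed by Ctsg and a run of granzymes that ends with Gzmb. The neighbours of Mcpt1 and Mcpt2 with a probe set differed by 0.74 (Cma2 with Mcpt9, shared) and 0.70 (Mcpt4), and the ends of the chymase row by 0.18 (Cma1) and 0.14 (Mcpt8). The pseudogene Mcpt-ps1, named here after its values were seen, read 34.1 in wild-type and 64.6 in transgenic tissue, a log2 difference of 0.90 below the filter in both. Beyond Mcpt8, cathepsin G (Ctsg), a granule protease of neutrophils and some mast cells, differed by -0.08 and granzyme B (Gzmb), a killer lymphocyte protease, by 0.04. Of the 11 granzyme and cathepsin genes listed, some of them, such as Gzma, from outside this row, all 11 were measured. Only Gzma and Gzmb passed the filter, with differences of -0.02 and 0.04, and 0 of the 11 were past 2-fold.

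**Figure D3:**
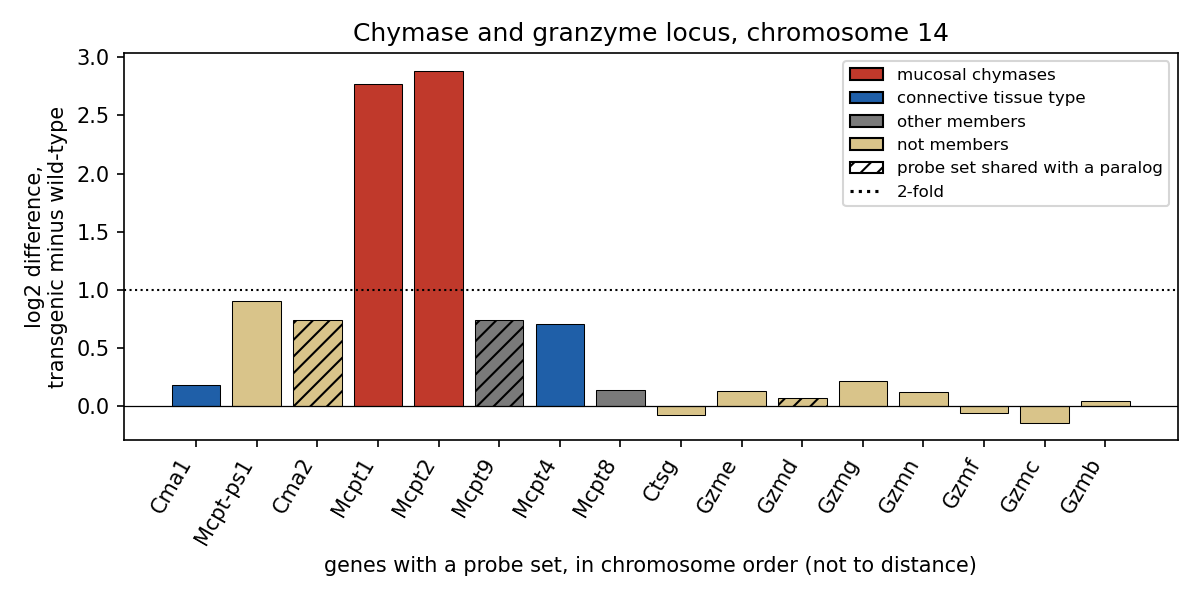
Bars give the log2 difference, transgenic minus wild-type, of the brightest probe set of each gene in its order along chromosome 14, with equal spacing and 1 array per pool; hatched bars are probe sets shared with a paralog, so the bars of Cma2 and Mcpt9 are the same measurement. Mcpt1 and Mcpt2 reach 2.77 and 2.89, no other gene of the row reaches the dotted line at 2-fold, and the granzymes lie near 0.

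The tryptase genes form a separate row on chromosome 17, in the order Tpsab1, Tpsb2, Tpsg1, and their differences were 0.10, 0.32 and 0.75. In the list of other tryptase-like and related serine proteases, 12 of 14 genes were measured, 7 passed the filter and 0 were past 2-fold, with a median of -0.11. The largest differences there were in Prss8, a membrane-bound epithelial protease, at 0.39, and Tmprss2, a membrane serine protease, at -0.31, with other probe sets of Tmprss2 reaching 0.50. Prss32 differed by 0.25, with its second probe set at 0.92, and Prss16 lay below the filter at 0.53. Among 11 measured relatives of Cpa3, 4 passed the filter and 0 were past 2-fold. Cpd, a carboxypeptidase of the secretory pathway, differed by 0.39 (its probe sets from 0.02 to 0.76) and Cpe, which processes peptide hormones, by -0.35. The pancreatic carboxypeptidases Cpa1 and Cpb1 read 63.5 and 40.1 in wild-type and 63.8 and 44.6 in transgenic tissue.

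Upstream sequences were set beside these values for the members in the RefSeq promoter table (GRCm38.p6), which holds 8 windows for 7 of the 10 genes, Mcpt2, Tpsb2 and Tpsab1 not among them. A window runs from 250 bases before the transcript start to 50 bases after it. The 250 bases before the start of Mcpt1 and Mcpt4 are shown because they are the closest pair of the set although the log2 differences of these genes were 2.07 apart, and those of Cpa3 because it was the third member past 2-fold. Capitals mark GATAA, the core of the sites bound by GATA factors, of which GATA2 is needed for mast cell formation. The windows are chr14:56017714-56017963 on the plus strand for Mcpt1, chr14:56062311-56062560 on the minus strand for Mcpt4 and chr3:20242182-20242431 on the minus strand for Cpa3, each written 5′ to 3′ along the gene.
Mcpt1: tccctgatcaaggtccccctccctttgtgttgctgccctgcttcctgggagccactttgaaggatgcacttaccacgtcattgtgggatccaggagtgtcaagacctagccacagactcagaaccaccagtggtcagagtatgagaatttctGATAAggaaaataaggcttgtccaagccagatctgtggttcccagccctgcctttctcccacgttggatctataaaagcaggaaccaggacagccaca
Mcpt4: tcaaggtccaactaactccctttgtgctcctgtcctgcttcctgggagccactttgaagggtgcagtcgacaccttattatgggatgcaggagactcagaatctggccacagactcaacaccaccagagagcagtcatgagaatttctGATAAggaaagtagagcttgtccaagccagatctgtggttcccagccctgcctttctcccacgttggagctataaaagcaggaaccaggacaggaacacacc
Cpa3: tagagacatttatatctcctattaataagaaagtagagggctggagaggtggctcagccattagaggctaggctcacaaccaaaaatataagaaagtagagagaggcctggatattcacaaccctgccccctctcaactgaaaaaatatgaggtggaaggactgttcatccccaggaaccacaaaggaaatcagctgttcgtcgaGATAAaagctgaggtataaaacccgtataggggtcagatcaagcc

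In a global alignment of the upstream bases, Mcpt1 and Mcpt4 were identical in 209 of 258 columns, or 81.0%, with 33 mismatches and 16 gap columns. The other 27 pairs of windows ranged from 40.8% to 50.4% identity, with a median of 45.1%. GATAA lies 98 bases before the start of Mcpt1, 102 before that of Mcpt4 and 45 before that of Cpa3. On either strand it was found in windows of 5 of the 7 genes, the others being Cma1 and Tpsg1, and in 25.4% of all 32851 promoter windows. The E-box letters CANNTG, read by MITF and other helix-loop-helix factors, were in 6 of 8 windows, but not in those of Mcpt1 and Mcpt4, and in 72.3% of all windows. The E-box forms CACGTG (7.15% of all windows) and CATGTG (14.2%), both cases of CANNTG, and TTCNNNGAA, letters of the STAT factors through which IL-9 signals (8.3%), were in 0 of the 8 windows. Such matches describe letters in the reference strain and are no evidence of binding.

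Mast cell genes outside the protease family differed by less than the mucosal chymases. Fcer1a, the IgE-binding chain of the high-affinity receptor, read 31.0 in wild-type and 109 in transgenic tissue, or 3.45-fold. The wild-type value of Fcer1a lay under the filter, where background may shrink a fold. Ms4a2, the beta chain of that receptor, read 35.7 in wild-type and 63.7 in transgenic tissue, with its probe sets at 0.82 and 0.14 on the log2 scale. The probe sets of Kit, the receptor for stem cell factor, differed by 0.71 and 0.38. Those of Hdc, which makes histamine, lay at -0.19 and -0.15, both under the SD between probe sets of a gene. Gata2, a transcription factor of mast cells, differed by 0.24, and Il9r, the IL-9 receptor, by -0.15 and below the filter in both pools.

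In the list of mast cell receptors and identity genes, 29 of 31 were measured and 16 passed the filter, of which 3 were 2-fold higher, 0 were lower by 2-fold and all 16 lay above 0, with a median of 0.32. Several lay above 0 by little, such as Mitf (0.02), Stat5b (0.03), Adora3 (0.06) and Fcer1g (0.07), under the SD between probe sets. The list is broad and holds genes not confined to mast cells, such as Siglecf and Kitl. Fcer1a and Siglecf passed through the transgenic pool alone, and over all 29 measured genes 23 lay above 0, with a median of 0.17. For all genes past the filter, 0.607% were 2-fold higher, 0.202% were 2-fold lower, 51.4% lay above 0 and the median was 0.01. The 3 were Fcer1a, Siglecf, a lectin of eosinophils and some epithelial cells (5.07-fold, 30.0 in wild-type and 156 in transgenic tissue), and Alox5, the 5-lipoxygenase of leukotriene synthesis (2.42-fold). In the list for the granule matrix and its assembly, 19 of 22 genes were measured and 17 passed the filter, 0 past 2-fold and 15 above 0, with a median of 0.24, or 0.10 as the mean over probe sets. The largest differences were in Glce, the epimerase of heparin and heparan sulfate synthesis, and Ctse, an intracellular aspartic protease. Glce differed by 0.92 (its probe sets ran from 0.23 to 0.98) and Ctse by 0.56 (its second probe set by 0.06). Srgn, the proteoglycan core that holds the proteases in the granule, differed by 0.50, and Ctsc, the peptidase that activates stored chymases and granzymes, by 0.10, with its probe sets from -0.21 to 0.11. In whole tissue, a larger number of mast cells and more of a transcript in each cell cannot be told apart.

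**Figure D4:**
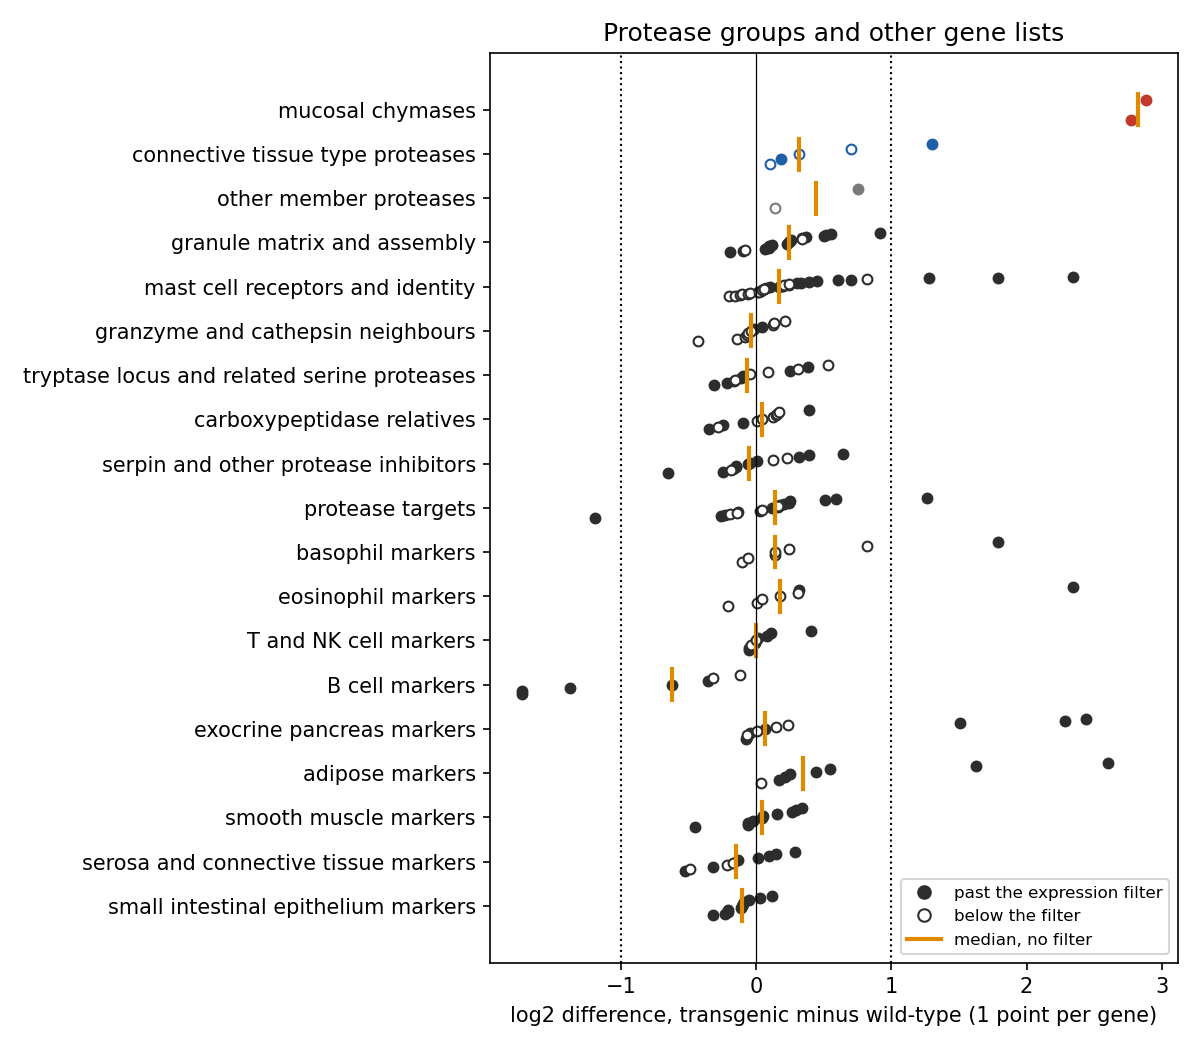
Each point is the log2 difference, transgenic minus wild-type, of a gene in the list named at the left, filled where the gene passed the expression filter and open where it did not; orange ticks are medians over all measured genes and dotted lines mark 2-fold. The mucosal chymases have their median at 2.83, the connective tissue type at 0.32 and the T and NK cell list at 0.

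Markers of other cells and layers were read beside the proteases. For the layers in which connective tissue mast cells lie, 0 of 10 smooth muscle genes and 0 of 7 serosal and connective tissue genes past the filter were past 2-fold, with medians of 0.05 and 0.02. The largest differences were in Pln, a calcium pump regulator of muscle (-0.46), Des, desmin (0.34), Upk3b, a mesothelial gene (-0.53), and Lum, a matrix proteoglycan (-0.32). Smaller differences came from other probe sets of Pln (-0.16), Des (0.02) and Upk3b (-0.33). In the epithelium list the largest were Lct, lactase, at -0.32 and Cdh1, E-cadherin, at -0.23. Of 7 basophil genes measured, Fcer1a alone passed the filter, and Mcpt8, which defines the cell, and Il4 read low in both pools. In the eosinophil list 2 of 7 genes passed the filter, Siglecf and Alox15. Those for granule proteins, Epx, Prg2 and Prg3, stayed under it, with differences of 0.04, -0.21 and 0.17. The T and NK cell list had 0 of 7 genes past 2-fold, led by Cd8a at 0.40 (its probe sets from -0.13 to 0.40) and Nkg7 at 0.11.

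The pools also differed in lists that have no tie to mast cells. In the exocrine pancreas list 3 of 7 genes past the filter were 2-fold higher in the transgenic pool, namely the lipase-related Pnliprp1 (5.42-fold) and Pnliprp2 (4.86-fold) and colipase, Clps (2.84-fold), and the summed intensity of its 11 measured genes was 15444 in transgenic against 4719 in wild-type tissue. The other 8, digestive proteases such as Prss2 (-0.08), Ctrb1 (-0.07) and Cela1 (-0.05) among them, summed to 855 against 857, with differences from -0.08 to 0.23. In the adipose list 2 of 7 were 2-fold higher, Adipoq (6.07-fold, 14.3 in wild-type and 91.9 in transgenic tissue, past the filter in the transgenic pool alone) and Car3 (3.09-fold, its probe sets from 0.14 to 3.62 on the log2 scale), and the summed intensity of 8 genes was 2416 in transgenic against 1714 in wild-type tissue. In the B cell list 3 of 5 were 2-fold lower, Ms4a1 (3.33-fold), Cr2 (3.31-fold) and Fcmr (2.59-fold), with Ms4a1 and Cr2 under the filter in transgenic tissue and a summed intensity over 7 genes of 693 in transgenic against 1261 in wild-type tissue. The part of such tissue differences in the protease values was not tested. Genes past the filter outside the family were also ranked by how near their difference came to the mean of Mcpt1 and Mcpt2, 2.83. By size alone, the nearest were Duoxa2 (2.74), a factor for an epithelial oxidase, Adipoq (2.60), Rgs13 (2.49) and Pmm1 (2.45), a sugar phosphate mutase. Rgs13, like Adipoq, read below the filter in wild-type tissue, and this likeness rests on a single difference per gene.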

How the data were processed

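Values are the submitters' deposited intensities from Affymetrix MOE430 2 arrays, on a linear scale from 5.60 to 25799, with array medians of 78.7 (transgenic) and 78.3 (wild-type). RMA, per the submitters' processing notes, made these values (no version). It equalises the arrays' distributions, so a shift shared by most genes could not be seen, and no detection calls were used here. Samples were grouped by their source labels. Gene names come from GEO's annotation of the platform, in which 34958 of 45101 probe sets have 1 symbol, 932 several and 9211 none. A gene is its probe set of 1 symbol with the highest mean. Differences use log2(intensity + 1). With 1 array per group no test was run.

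The members, groups and gene lists were chosen with earlier results of these data known. Named genes are all members, list genes past 2-fold or otherwise the 2 with the largest difference past the filter, the 4 nearest in difference to Mcpt1 and Mcpt2, and Kit, Fcer1a, Ms4a2, Hdc, Gata2, Il9 and Il9r. Others (Mcpt-ps1, Cma2, Gm5801, Ctsg, Srgn, Ctsc, Cpa1, Cpb1, Prss2, Il4, Epx, Prg2, Prg3, Alox15, Ocln, Tjp1, Cldn1, Cldn3, Ctrb1, Cela1, Prss32, Prss16) were named after their values were seen. Mitf, Stat5b, Adora3, Fcer1g and Kitl were also named after their values were seen. The planned comparison of protein sequences was not run. Promoters were aligned with Biopython 1.88 (match 2, mismatch -1, gap opening -5, gap extension -0.5). The computation was tested on simulated data in Python 3.11.15. Alternatives were the pseudocount, scaling, choice of probe sets, filter, group membership and size of change.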

Additional observations from a re-analysis of the deposited data

How the results depend on the processing

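All 10 members lay above 0 under each alternative that gave them a value, and all 82 values of single members moved by less than 0.23, the SD between probe sets. Tpsb2 alone has a second probe set. For the other members the alternatives on probe sets and on the filter therefore repeat the main value and could not move it. Mcpt1 ran from 2.72 to 2.77 and Mcpt2 from 2.83 to 2.89. The median of the mucosal chymases ran from 2.78 to 2.83. For the connective tissue type genes the median was 0.25 without Cpa3 and 0.51 with Tpsg1. It was 0.78 without the probe sets whose IDs end in _x_at, _s_at or _a_at, which leaves Cpa3 and Tpsb2. For members past the expression filter (Cma1 and Cpa3) it was 0.74. Under the last 2 of these, mucosal minus connective was 2.05 and 2.09, and over all alternatives it ran from 2.05 to 2.58. Of the 9 members with a probe set of their own, 5 were higher at 1.5-fold in place of 3, and 2 at 3-fold. The shared probe set of Cma2 and Mcpt9, at 1.67-fold, is not in these counts. The share of all genes at these sizes is not given here, so these counts have no background beside them. Of the list medians, that of the other tryptase-like proteases went from -0.11 to 0.02, that of the serosal list from 0.02 to -0.11 and that of the pancreas list from 0.07 to 1.60 when the probe sets of a gene were averaged, with 6, 7 and 5 genes past the filter. The adipose list then had 1 of 6 genes 2-fold higher in place of 2 of 7, with a median of 0.25 in place of 0.44. Low signal limits Mcpt4, Mcpt8, Tpsb2 and Tpsab1, which lay under the filter in both pools, and Cma1, which lay little above it. No paired analysis was possible because each group holds 1 array.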

Other observations

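Inhibitors and known targets of the granule proteases were read as further lists. Of 19 listed inhibitors 14 were measured and 11 passed the filter, with 0 past 2-fold and a median of -0.06. Serpina1b, an alpha-1-antitrypsin gene, read 213 in wild-type and 135 in transgenic tissue, a log2 difference of -0.65, and Spink4, a goblet cell peptide of the Kazal inhibitor family, differed by 0.64. The Serpina1 genes are close paralogs, so the value of a single one is uncertain.

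Of 20 genes for proteins that mast cell proteases are known to cleave or act through, 18 were measured and 14 passed the filter, with a median of 0.17. Among these 14, 1 was 2-fold higher and 1 was 2-fold lower. Fn1, the matrix protein fibronectin, read 925 in wild-type and 2222 in transgenic tissue, or 2.40-fold. Vip, a neuropeptide of the gut wall, read 1587 in wild-type and 693 in transgenic tissue, 2.29-fold lower. Among the junction genes of the list, Tjp1 differed by 0.25, Ocln by 0.20 (its second probe set by -0.25), Cldn3 by 0.03 and Cdh1 by -0.23, while Cldn1 lay below the filter at 0.05. These are transcript levels and do not measure cleavage.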
